A study of Mus musculus with 6 samples.

Results

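Interferon-stimulated effector genes are the genes that a cell switches on when interferon or viral nucleic acid is sensed, and whose products act directly on viruses, membranes or RNA. A list of 39 of them was followed in mouse embryonic fibroblasts that lack Zmpste24, and in their wild-type counterparts. Each member was read from the probe sets of an Affymetrix Mouse Genome 430 2.0 array that carry its symbol alone, and from the probe set with the highest mean over the 6 arrays where there were several. Of the 39 members, 37 had such a probe set and 34 passed a filter that removed the dimmest 40% of all probe sets. These 34 stand among 13038 named genes and 27022 probe sets tested. Ifi44 had no listed probe set, Isg15 was covered by a probe set that also carries another symbol and was not used, and Zbp1, Cmpk2 and Mx1 lay under the filter. On the 3 arrays of each genotype those filtered genes had signals of 28.1 to 39.3 (Zbp1), 3.41 to 22.0 (Cmpk2) and 23.4 to 36.8 (Mx1) in Zmpste24-/- cells, against 28.9 to 54.2, 5.28 to 27.4 and 18.5 to 55.4 in wild-type cells.

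The study grew fibroblasts from C57BL/6 embryos of stage E13.5 to passage 3 in medium with fetal calf serum and hybridised total RNA from 3 Zmpste24-/- and 3 wild-type (Zmpste24+/+) cultures, 1 array each. ZMPSTE24 is the membrane protease that trims prelamin A to mature lamin A, and its loss leaves farnesylated prelamin A at the nuclear envelope. The deletion is constitutive, and no group received interferon, a virus or another agent. Cultures carry the numbers 1 to 3 within each genotype and were described as made in pairs. The labels give neither the sex of the embryos nor whether a pair shared a litter, so the p-values measure the spread between these cultures.

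Type I interferons bind a cell-surface receptor and activate the kinases JAK1 and TYK2, which phosphorylate transcription factors in the cytoplasm. A complex that holds IRF9 then binds the interferon-stimulated response element, whose core repeats the letters GAAA. Interferon gamma acts at another element, the gamma-activated site. Fibroblasts keep a basal, low expression of many of these genes without added interferon, and the encoded sensors RIG-I and MDA5 in turn promote interferon production.

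Zmpste24 itself followed the labels. Its signal was 365, 182 and 226 on Zmpste24-/- arrays 1, 2 and 3, against 3850, 2249 and 2043 on wild-type arrays 1, 2 and 3. The groups did not overlap, and wild-type was 9.95-fold higher on the log2(signal + 16) scale, from which every fold here is taken, with a log2 difference (Zmpste24-/- minus wild-type) of -3.31 and a limma adjusted p of 4.0e-05 with the culture number as a block and 0.987 without it. The arrays of number 1 stood apart from the other 4 in both genotypes: over the tested probe sets they correlated at 0.985 with each other and at 0.927 to 0.934 with the rest, which correlated at 0.9801 to 0.987 among themselves. Xist, the RNA of the inactive X chromosome, was 6669, 4766 and 6660 on the Zmpste24-/- arrays and 5324, 69.3 and 43.7 on the wild-type arrays. The Y-linked Eif2s3y was 14.6, 10.4 and 15.7 on the Zmpste24-/- arrays and 1.497, 531 and 1341 on the wild-type arrays, and the Y-linked Kdm5d was also highest on wild-type arrays 2 and 3, with 5.98, 0.495 and 11.8 on the Zmpste24-/- arrays against 12.9, 326 and 415 on the wild-type arrays. In pairs 2 and 3, therefore, genotype and these sex-linked transcripts cannot be told apart, whereas pair 1 was alike in them.

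The promoters of the list were read first, since several members moved together across the cultures. RefSeq windows (GRCm38.p6), running from 250 bases before to 50 bases after a gene's start, were given for 27 of the 39 members. The core of the interferon-stimulated response element, GAAANNGAAA on either strand, was present in 15 of these 27 genes (55.6%) and in 3.99% of 27025 genes with a window. The core of the gamma-activated site, TTCNNNGAA, was present in 7 of the 27 (25.9%) and in 9.55% of all genes. These matches are letters in a window, and neither binding nor use of the element was measured. The windows of 4 members with a matched element upstream of the start are shown with that of Lgals3bp, which had none, as the last 160 bases before the start, 5′ to 3′ on the gene's strand. Capitals mark the bases of the response element core or its reverse complement. The sequences are Ifit1 at chr19:34640729-34640888 (plus strand), Ifit3 at chr19:34583369-34583528 (plus strand), Bst2 at chr8:71537473-71537632 (minus strand), Irgm1 at chr11:48871421-48871580 (minus strand) and Lgals3bp at chr11:118401960-118402119 (minus strand).
Ifit1: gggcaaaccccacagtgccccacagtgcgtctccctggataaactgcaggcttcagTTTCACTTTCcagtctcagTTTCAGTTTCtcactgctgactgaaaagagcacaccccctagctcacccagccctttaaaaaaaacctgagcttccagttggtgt
Ifit3: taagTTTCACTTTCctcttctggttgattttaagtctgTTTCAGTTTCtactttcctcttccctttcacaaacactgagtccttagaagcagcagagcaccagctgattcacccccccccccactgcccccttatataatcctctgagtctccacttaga
Bst2: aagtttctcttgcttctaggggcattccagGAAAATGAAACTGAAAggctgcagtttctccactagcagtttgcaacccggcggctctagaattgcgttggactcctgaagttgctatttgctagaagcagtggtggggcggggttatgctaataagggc
Irgm1: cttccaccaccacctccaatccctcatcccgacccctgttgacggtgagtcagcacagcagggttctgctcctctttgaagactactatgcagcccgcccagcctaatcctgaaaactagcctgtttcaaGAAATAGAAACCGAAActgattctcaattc
Lgals3bp: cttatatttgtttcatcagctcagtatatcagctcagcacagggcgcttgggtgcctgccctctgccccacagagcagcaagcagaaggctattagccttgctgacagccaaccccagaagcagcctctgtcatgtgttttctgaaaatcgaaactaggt
In Ifit1 the matches began 104 and 85 bases before the start, and in Ifit3 156 and 122 bases before it. Those of Bst2 (130 and 124 bases) and of Irgm1 (30 and 24 bases) overlap, so that 1 run of capitals holds both. The other members with a match upstream were Isg15 (78, 72 and 66 bases), Gbp2 (59), Gbp3 (45 and 39), Igtp (34), Rsad2 (120) and Trim30a (36). In Ifih1, Ddx58, Eif2ak2, Trim21 and Ifitm3 the match lay after the start. That adds up to 14 of 24 tested members with a window, and the 14 differed between genotypes by a median of -0.36 on the log2 scale (range -1.29 to 0.18), against -0.30 (range -0.76 to 0.11) for the 10 without a match. No test was made of that difference.

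The comparison of Zmpste24-/- with wild-type fibroblasts asks how the loss of the protease changes basal effector expression. Most members were lower in Zmpste24-/- cells, by a modest amount, and no single member passed the test over all genes in the fit without a block. The members were chosen with earlier results of these data known. Shares of all probe sets set beside them, here and below, describe the list and do not test it. Of the 34 tested members, 30 had a log2 difference below 0, against 51.1% of all probe sets, and the median was -0.39 (range -1.77 to 0.18), against -0.0036 over all named genes. Only Eif2ak2 (0.04), Ifit2 (0.10), Ifitm1 (0.11) and Gbp3 (0.18) were above 0. In limma, fitted on log2(signal + 16) without a block, 0 of the 34 members and 0 of 27022 probe sets (0%) had an adjusted p under 0.05. Every member's adjusted p was 0.9999. In this fit Zmpste24 itself, the deleted gene, had an adjusted p of 0.987, so the lack of calls tells little about single members. At an unadjusted p under 0.05 there were 3 members, against 1.29% of all probe sets, and against 0.847% in the lower direction.

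Blocking on the culture number removed much of the spread. With the block, 5 probe sets were called (0.0185%), 0 of them members, and 18 of the 34 members had an unadjusted p under 0.05, all of them lower in Zmpste24-/- cells, against 8.99% of all probe sets in either direction and 4.41% in the lower direction. The members were below 0 in 28, 32 and 29 of 34 genes in pairs 1, 2 and 3, against 48.8%, 54.7% and 47.4% of all probe sets. In all 3 pairs 23 members were lower and 0 were higher, against 16% and 15.8% of all probe sets. Dhx58 and Mx2 were the 2 members whose mean was above the limit of the filter on dim probe sets in wild-type cells only. Without them, 28 of 32 members were below 0, 21 were lower in all 3 pairs and the median was -0.36. The median difference of the members was -0.26 in pair 1, -0.55 in pair 2 and -0.46 in pair 3. The arrays of number 1 weigh on the unpaired median: it was -0.77 without Zmpste24-/- array 1 and -0.12 without wild-type array 1, and -0.21 without Zmpste24-/- array 2.

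**Figure D1:**
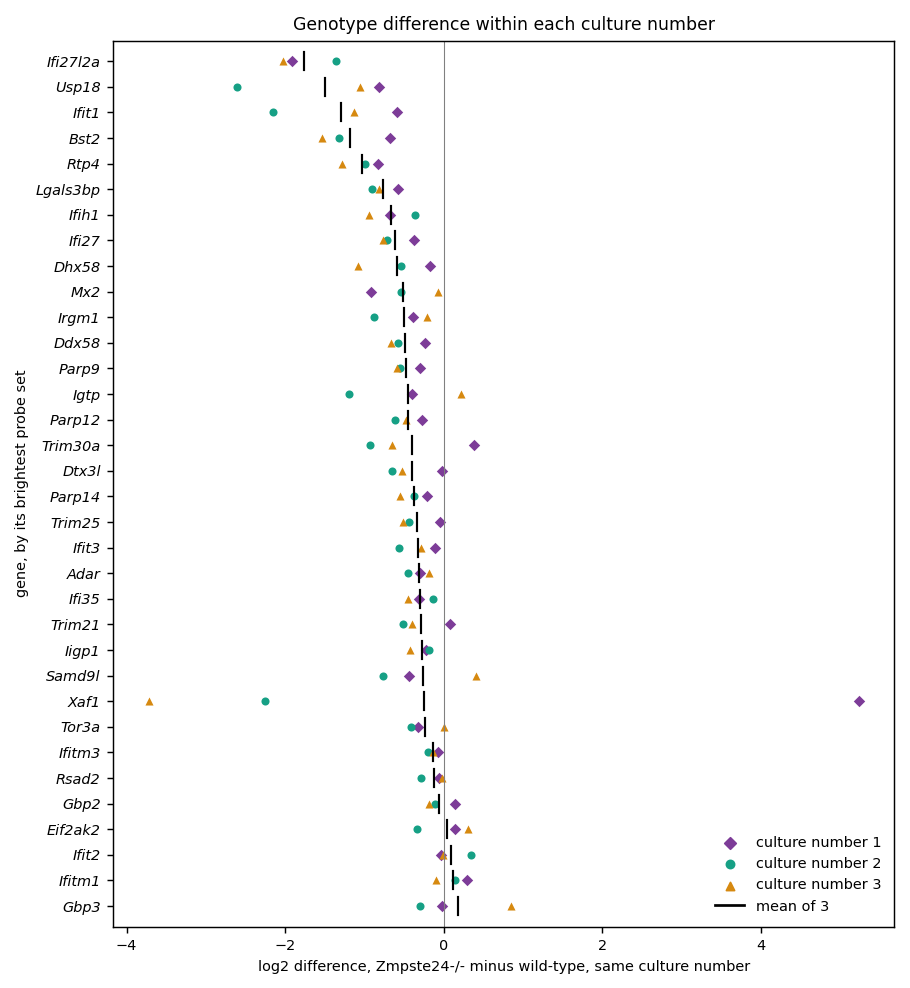
Log2 difference, Zmpste24-/- minus wild-type, of each of the 34 tested members (rows, brightest probe set) within culture numbers 1 (diamonds), 2 (circles) and 3 (triangles), with the mean of the 3 as a black bar. For 23 members all 3 marks lie left of 0, and Xaf1 is the member whose marks lie farthest apart.

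Among factors that act at membranes and budding, Bst2 (tetherin), which holds budding virions at the cell surface, was 1977, 434 and 447 in Zmpste24-/- cultures 1, 2 and 3, against 3172, 1111 and 1331 in wild-type cultures 1, 2 and 3. Every pair was lower in Zmpste24-/- cells, while the groups overlapped because both number 1 cultures were high. Wild-type was 2.27-fold higher (log2 difference -1.18, SE 0.15 with the block, limma adjusted p 0.108). Rtp4, a receptor chaperone that also restricts flaviviruses, was 827, 158 and 150 in Zmpste24-/- cultures, against 1487, 329 and 388 in wild-type cultures (log2 difference -1.04, SE 0.13 with the block, adjusted p 0.0881). Lgals3bp, the secreted galectin-3 binding protein, was 3284, 507 and 556 in Zmpste24-/- cultures, against 4888, 962 and 993 in wild-type cultures (log2 difference -0.76, SE 0.09, adjusted p 0.0881). In both genes number 1 was far above the others in either genotype, the groups overlapped for that reason, and the lower value of each pair was that of the Zmpste24-/- culture. With single arrays left out of the unblocked fit, the difference ran from -1.89 to -0.72 for Bst2 and from -1.81 to -0.37 for Rtp4. For Lgals3bp it ran from -1.63 to 0.0036, so its sign was not kept. The lower ends were without Zmpste24-/- array 1 and the upper ends without wild-type array 1. Ifitm3, which blocks fusion of virions with the endosome, differed little: 19107, 16532 and 15975 in Zmpste24-/- cultures, against 20170, 19003 and 17534 in wild-type cultures (log2 difference -0.14). Its paralogue Ifitm1 was at 0.11.

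Among the small hydrophobic ISG12 proteins, Ifi27l2a had the largest difference of the list. Its signal was 88.5, 61.7 and 32.3 in Zmpste24-/- cultures 1, 2 and 3, against 378, 183 and 181 in wild-type cultures 1, 2 and 3. The groups did not overlap, the means were 60.8 ± 28.1 and 247 ± 113 (SD, n = 3 each) in Zmpste24-/- and wild-type cells, and wild-type was 3.40-fold higher on the fitted scale. The log2 difference was -1.77, with an SE of 0.39 and an unadjusted limma p of 0.0033 without the block, and an SE of 0.19 and an adjusted p of 0.0655 with it. The pair differences were -1.91, -1.36 and -2.03 in pairs 1, 2 and 3, and the part of sex in pairs 2 and 3 was not tested. Its neighbour Ifi27, whose annotated span overlaps it, was 7629, 2761 and 2683 in Zmpste24-/- cultures, against 9905, 4535 and 4560 in wild-type cultures (log2 difference -0.62, adjusted p 0.108 with the block). The second probe set of Ifi27 gave -0.67. With single arrays left out, Ifi27 ran from -1.11 without Zmpste24-/- array 1 to -0.24 without wild-type array 1.

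In a fit that treated number 1 as one block and numbers 2 and 3 together as the other, 5 of the 34 members fell in Zmpste24-/- cells and 0 rose. Of all probe sets 0.0407% were called in that fit, 0.037% lower and 0.0037% higher. The 5 members were Ifi27l2a (adjusted p 0.0329), Rtp4 (0.0376), Bst2 (0.0394), Lgals3bp (0.0394) and Ifi27 (0.0455). The second probe set of Ifi27 was not called in this fit (limma adjusted p 0.109), but was called in numbers 2 and 3 alone (0.0170). This grouping of the numbers was chosen from the correlations of these same arrays, and the members with earlier results of these data known. The count of members called therefore does not test the list. With each number as its own block, 0 members were called, and these 5 had limma adjusted p of 0.0655 to 0.108. Within numbers 2 and 3 alone, where 0.074% of probe sets were called (0.0629% lower and 0.0111% higher), 2 members fell: Bst2, with a log2 difference of -1.43 (adjusted p 0.00446), and Ifi27, with -0.74 (adjusted p 0.0170). Those are the cultures whose genotypes also differed in Xist and Y-linked signal. The 5 calls above draw on them too, and the part of sex in these 2 calls and in those 5 was not tested. Within number 1, Bst2 was at -0.68 and Ifi27 at -0.38.

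**Figure D2:**
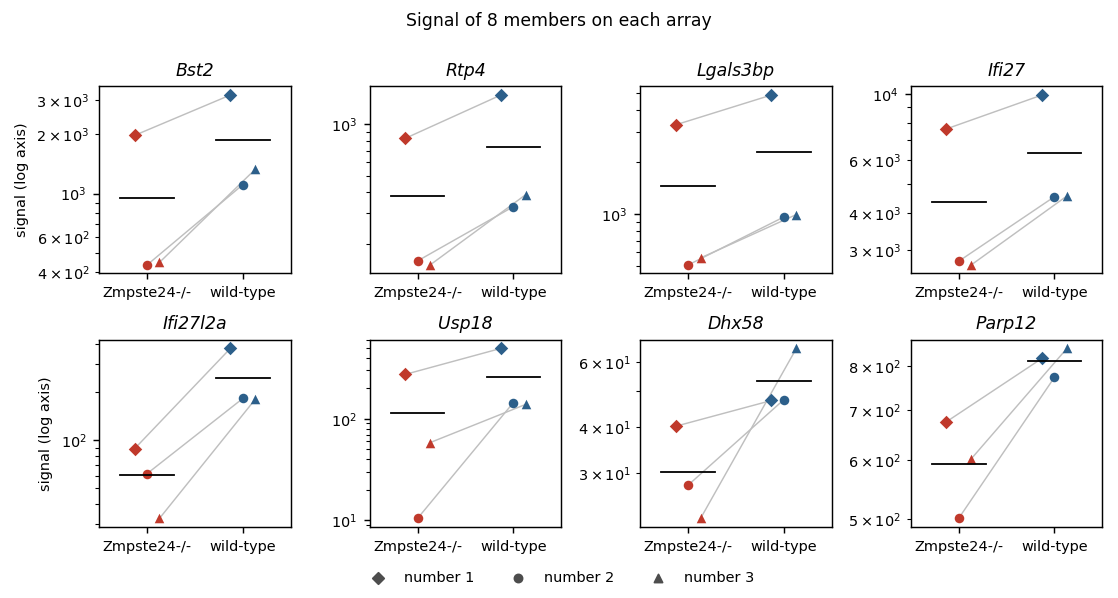
Signal (log axis, array units) of 8 members in Zmpste24-/- (left, red) and wild-type (right, blue) cultures, with diamonds, circles and triangles for numbers 1, 2 and 3, grey lines joining equal numbers and black bars for the mean of 3. Equal-numbered lines slope upward to wild-type in all 8 genes, and Ifi27l2a, Dhx58 and Parp12 show no overlap between groups.

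Usp18, the protease that removes the ISG15 modifier and also damps signalling at the interferon receptor, was 274, 10.4 and 58.2 in Zmpste24-/- cultures 1, 2 and 3, against 495, 145 and 139 in wild-type cultures 1, 2 and 3. The Zmpste24-/- culture was lower in each pair, and the 2 groups overlapped through number 1. The log2 difference was -1.49 with an SE of 0.32 with the block and an adjusted p of 0.306, and the signal of 10.4 lies under the filter limit of 39.4. The difference was -2.40 without Zmpste24-/- array 1 and -0.67 without Zmpste24-/- array 2.

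The sensors of cytosolic RNA and the enzymes that act on it gave smaller differences. Dhx58 (LGP2), a RIG-I-like helicase without signalling domains that modulates MDA5, was 40.2, 27.8 and 22.6 in Zmpste24-/- cultures, against 47.2, 47.5 and 65.5 in wild-type cultures. The groups did not overlap, and the log2 difference was -0.59 (SE 0.25, unadjusted p 0.0497 without the block, adjusted p 0.589 with it). Its mean was 30.2 in Zmpste24-/- cells and 53.4 in wild-type cells, so only its wild-type mean was above the filter limit of 39.4, and the filter then favours a difference of this direction. The dimmer Dhx58 probe sets lay under the filter, and their groups overlapped. They averaged 17.1 and 16.4 in Zmpste24-/- cells, against 26.4 and 12.3 in wild-type cells, so their directions were opposite. Adar, which edits adenosines in double-stranded RNA and so keeps self RNA from being sensed, was 763, 511 and 575 in Zmpste24-/- cultures, against 940, 703 and 658 in wild-type cultures (log2 difference -0.31, adjusted p 0.484 with the block). Both had a lower Zmpste24-/- value in every pair. Ifih1 (MDA5, which senses long double-stranded RNA) was at -0.66 and Ddx58 (RIG-I, which senses RNA with a triphosphate end) at -0.49. Eif2ak2, the kinase PKR that halts translation on double-stranded RNA, was at 0.04, and 1 of its 3 probe sets had the other sign (-0.25).

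Non-overlap in the lower direction was also seen for Parp12, a mono-ADP-ribosyltransferase that restricts alphaviruses, with 674, 502 and 602 in Zmpste24-/- cultures, against 820, 773 and 845 in wild-type cultures. It was lower in each pair (log2 difference -0.45, SE 0.17 and unadjusted p 0.0357 without the block, adjusted p 0.334 with it). Non-overlapping groups, lower in Zmpste24-/-, thus occurred for 3 of 34 members (Ifi27l2a, Dhx58 and Parp12), against 3.03% of all probe sets, and higher for 0, against 2.22%. Without Dhx58 and Mx2, whose mean was above the filter limit in wild-type cells only, the lower count was 2 of 32. The rest of this ADP-ribosylation and ubiquitin group, Parp9 (-0.48), its partner ligase Dtx3l (-0.40) and Parp14 (-0.38), was lower in all 3 pairs as well. Dtx3l and Parp9 share an overlapping annotated span.

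The IFIT and TRIM groups held mixed differences. Ifi35, an interferon-induced leucine zipper protein, was 4261, 2789 and 2203 in Zmpste24-/- cultures, against 5287, 3059 and 3011 in wild-type cultures (log2 difference -0.30, overlapping groups). Of the IFIT proteins, which bind viral RNA ends and block its translation, Ifit1 was at -1.29 (-2.55 without Zmpste24-/- array 1 and -0.30 without Zmpste24-/- array 2), Ifit3 at -0.32 and Ifit2 at 0.10. Trim25, the ubiquitin ligase that promotes RIG-I signalling, was 1945, 1362 and 1234 in Zmpste24-/- cultures, against 2008, 1846 and 1774 in wild-type cultures (-0.33). Trim21, a cytosolic antibody receptor, was at -0.28. Trim30a was at -0.40, and its second probe set had the other sign (0.23), so its direction is uncertain.

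Among the GTPases, Irgm1, which acts in defence against intracellular bacteria, was 850, 390 and 574 in Zmpste24-/- cultures, against 1121, 728 and 670 in wild-type cultures (-0.49). Mx2, a dynamin-like antiviral GTPase, was at -0.51, Igtp at -0.46, Iigp1 at -0.28, Gbp2 at -0.05 and Gbp3 at 0.18. Of these 6 tested GTPases 3, Irgm1, Mx2 and Iigp1, were lower in all 3 pairs, against 16% of all probe sets. Mx2 averaged 27.9 in Zmpste24-/- cells and 55.6 in wild-type cells, so for it too only the wild-type mean was above the filter limit. Both its number 1 arrays lay above the rest. Rsad2 (viperin), which makes a chain-terminating nucleotide, was 127, 67.5 and 74.7 in Zmpste24-/- cultures, against 133, 86.0 and 76.2 in wild-type cultures (-0.12). Samd9l, a restriction factor that represses translation, was 500, 236 and 341 in Zmpste24-/- cultures, against 680, 412 and 254 in wild-type cultures (-0.26), and Tor3a was at -0.24. Groups overlapped for all of these genes.

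The second comparison is between culture numbers. Over the members the median difference was larger in size than between genotypes (0.89 against -0.39). The differences ran the same way for nearly the whole list. For Ifi27l2a, Dhx58, Parp12 and Xaf1 the genotype difference was the larger in size. In a fit with genotype as a covariate, 26 of the 34 members passed the F test for culture number, against 41.6% of all probe sets. For number 1 against the mean of numbers 2 and 3, where 47.4% of probe sets were called in either direction, 28 members rose, against 25.4% of probe sets, and 0 fell, against 22%. Without the filter on dim probe sets, 27 of the 37 members rose. The median difference was 0.89 on the log2 scale (range -0.76 to 3.25), against 0.05 over all named genes. Numbers 2 and 3 differed in 0 members (0.0074% of probe sets), with a median of -0.06. For 28 of the 34 members both number 1 arrays lay above the other 4, against 31.2% of all probe sets, and for 1, Trim30a, both lay below, against 27.2%.

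**Figure D3:**
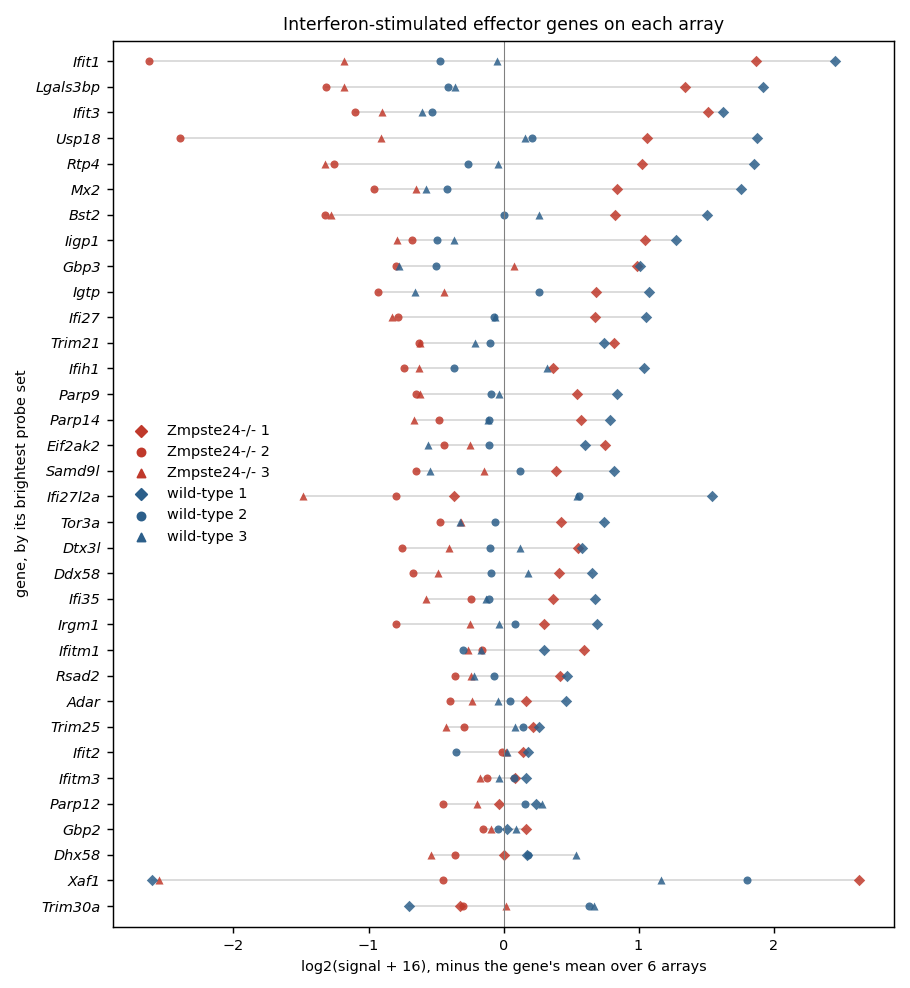
Log2(signal + 16) of each tested member on the 6 arrays, minus the gene's mean over the arrays, for Zmpste24-/- (red) and wild-type (blue) cultures 1 (diamonds), 2 (circles) and 3 (triangles). Rows run from Ifit1, with the largest difference of number 1 from the others (3.25), down to Trim30a (-0.76), and in most rows both diamonds lie to the right of the other 4 marks.

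The steepest were genes of the IFIT, membrane and ISG15 groups. Ifit1 (named here after its values were seen) was 503 in Zmpste24-/- culture 1 and 764 in wild-type culture 1, against 6.99 and 46.6 in Zmpste24-/- cultures 2 and 3 and 86.2 and 121 in wild-type cultures 2 and 3. The log2 difference was 3.25 (limma adjusted p 6.48e-05). Lgals3bp rose by 2.45 (adjusted p 3.06e-06), Ifit3 by 2.35, Usp18 by 2.20, Rtp4 by 2.16 and Bst2 by 1.75 (adjusted p 7.36e-05). Mx2 rose by 1.95 and Parp14 by 1.03. Their signals in numbers 2 and 3 averaged 12.8 and 35.9, so only their number 1 means were above the limit of the filter on dim probe sets. Without them and Trim30a, whose mean was above the limit in numbers 2 and 3 only, 26 of 31 members rose, with a median of 0.88. Members that did not pass were Dhx58 (0.13), Ifit2 (0.24), Gbp2 (0.14), Parp12 (0.15), Xaf1 (0.02) and Trim30a (-0.76). The 14 tested members with the response element core had a median of 1.04 and 12 that rose. The 10 without it had a median of 0.57 and 7 that rose. Both counts stand against 25.4% of all probe sets, and the difference between the 14 and the 10 was not tested.

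Other markers moved with number 1, in which 25.4% of all probe sets rose and 22% fell. Of 19 macrophage markers, 18 had a probe set and 14 were tested, and 13 of the 14 rose in number 1, with a median of 2.17. Of these, C1qa, C1qc, Ptprc and Mpeg1 had a mean above the filter limit in number 1 only, and without them 9 of 10 rose, with a median of 1.83. The summed signal was 17167, 1904 and 1998 in Zmpste24-/- cultures 1, 2 and 3, against 9459, 2319 and 3111 in wild-type cultures 1, 2 and 3. None was at 0, and Fcgr1, Aif1, Itgam and Cx3cr1 were under the filter, with C1qa at 3.40 and 3.18 in Zmpste24-/- cultures 2 and 3 and 9.02 and 8.67 in wild-type cultures 2 and 3. All 7 tested proliferation genes fell in number 1 (median -2.38), with summed signals of 5430, 23182 and 20892 in Zmpste24-/- cultures and 5493, 20044 and 20860 in wild-type cultures. Of the 10 fibroblast markers 5 rose and 2 fell, against 25.4% and 22% of all probe sets. The 10 summed to 94764 to 116884 in Zmpste24-/- cultures and 98285 to 118540 in wild-type cultures. That sum is carried by genes of high signal, while Lum was 14.3-fold and Dcn 7.50-fold higher in number 1, both extracellular matrix proteoglycans. Of 5 epithelial markers 4 were tested and 2 fell, Krt19 (log2 difference -4.68) and Krt18 (-2.40). Their summed signal was 595, 3409 and 2956 in Zmpste24-/- cultures 1, 2 and 3, against 555, 3227 and 3111 in wild-type cultures 1, 2 and 3. Among wild-type cultures, number 1 also differed from numbers 2 and 3 in Xist and Y-linked signal, as given above. Culture number and these sex-linked transcripts cannot be told apart there, whereas the Zmpste24-/- cultures were alike in them. The part of sex and of these cell markers in the number 1 difference was not tested. Fewer cells of a type and less RNA per cell cannot be told apart in such bulk RNA.

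**Figure D4:**
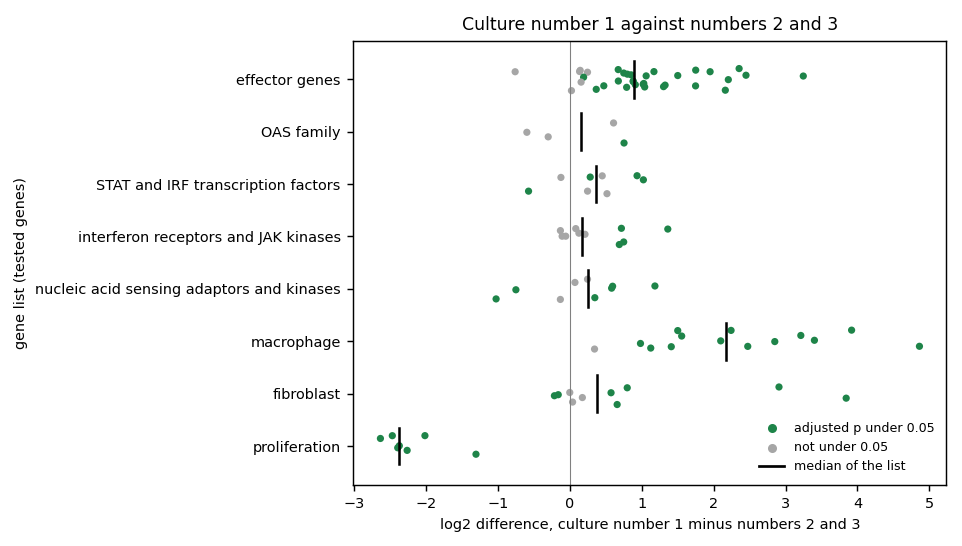
Log2 difference between number 1 and the mean of numbers 2 and 3 for every tested gene of 8 lists (points, green where the adjusted p was under 0.05, grey otherwise), with the median of each list as a black bar. Effector genes have a median of 0.89, macrophage markers of 2.17 and proliferation genes of -2.38.

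Between genotypes the macrophage markers were also read by pair, each with 1 array per genotype. In pair 1, 0 of the 14 tested markers were lower in Zmpste24-/- cells, with a median of 0.88. Of the 34 effectors 28 were lower in that pair, with a median of -0.26. Of all probe sets 48.8% were lower there. In pairs 2 and 3, 12 and 14 of the 14 markers were lower in Zmpste24-/- cells, against 54.7% and 47.4% of all probe sets. Their medians were -0.24 and -0.40. The part of these markers in the effector differences was not tested in any pair.

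The upstream genes of the pathway moved less between genotypes, and none of their tested genes was called without a block, with the replicate block, with number 1 as one block or in numbers 2 and 3 alone. Of 7 interferon genes, 5 had a probe set and 0 passed the filter, so no ligand was tested. Ifna1 read 12.3, 9.53 and 12.5 in Zmpste24-/- cultures, against 41.4, 58.9 and 16.4 in wild-type cultures. It was named after its values were seen, because these groups did not overlap. That held in this direction for 3.03% of tested probe sets, but the mean of Ifna1, 25.2, lies under the filter limit of 39.4. It is therefore not among the tested ones, and the share among dim probe sets was not computed. The groups of the other ligands with a probe set overlapped. Of 11 receptors, JAK kinases and regulators, 10 were tested, with a median of 0.05. Jak2, a kinase of the interferon gamma receptor, was 654, 637 and 781 in Zmpste24-/- cultures, against 553, 520 and 600 in wild-type cultures. Its groups did not overlap, in the higher direction (0.30), against 2.22% of all probe sets, with an adjusted p of 0.484 with the block. Ifngr2, a chain of that receptor, was at -0.13, and Socs3, a feedback inhibitor of cytokine signalling, at -0.29. Of 9 STAT and IRF factors, 8 were tested, with a median of -0.17, and 2, Irf7 and Irf1, had groups that did not overlap and were lower in Zmpste24-/- cells, against 3.03% of all probe sets. Irf7, the interferon-induced amplifier of interferon transcription, was 153, 58.1 and 85.4 in Zmpste24-/- cultures, against 194, 166 and 207 in wild-type cultures (log2 difference -0.91, limma adjusted p 0.341 with the block). Irf9, the DNA-binding subunit of the complex at the response element, was 751, 306 and 346 in Zmpste24-/- cultures, against 877, 537 and 533 in wild-type cultures (-0.53, adjusted p 0.361 with the block). Irf9 was lower in Zmpste24-/- cells in each pair, and its groups overlapped because Zmpste24-/- culture 1 lay above wild-type cultures 2 and 3.

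Irf1, a factor induced by interferon gamma, was 546, 613 and 595 in Zmpste24-/- cultures, against 685, 867 and 634 in wild-type cultures (-0.30). The OAS family, whose enzymes make the 2-5A messenger that activates RNase L, had 4 of 8 genes tested and a median of -0.60, with Oas1a at -1.36 (adjusted p 0.377 with the block), Oasl2 at -0.78 (0.442) and Oas1b at -0.41. The groups of Oas1a did not overlap, against 3.03% of all probe sets in the lower direction. Its differences in pairs 1, 2 and 3 were -0.36, -2.54 and -1.18. Of 15 adaptors, kinases and nucleases of nucleic acid sensing, 9 were tested, with a median of -0.02. Samhd1, which depletes nucleotides, was at 0.19, Rnaseh2a, a subunit of the nuclease of RNA in DNA, at -0.16 and Tlr9, the receptor for unmethylated DNA, at 0.32. For number 1 against the others, 4 of 10 receptor and JAK genes, 3 of 8 STAT and IRF genes, 4 of 9 sensing genes and 1 of 4 OAS genes rose, against 25.4% of all probe sets. In the same lists 0, 1, 2 and 0 genes fell, against 22%.

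The genotype difference was also compared between culture numbers. Number 1 has a single array of each genotype, so its own difference is unreplicated and the spread in this test comes from numbers 2 and 3. In a test of the difference in number 1 minus that in numbers 2 and 3, 7 probe sets were called (0.0259%) and Xaf1 was among them. Xaf1, a partner of the apoptosis inhibitor XIAP, was 1347, 145 and 21.5 in Zmpste24-/- cultures 1, 2 and 3, against 20.1, 752 and 478 in wild-type cultures 1, 2 and 3. It was higher in Zmpste24-/- cells in pair 1 (5.24) and lower in pairs 2 and 3 (-2.25 and -3.72), and the test gave 8.22 (limma adjusted p 0.0445). The call was lost with a pseudocount of 1, after quantile normalization, without the filter and without the intensity trend (adjusted p 0.0558 to 0.815). The second Xaf1 probe set ran differently, at 94.7, 172 and 235 in Zmpste24-/- cultures, against 1406, 37.3 and 430 in wild-type cultures. In culture 1 the probe sets were thus opposite in both genotypes, and the log2 differences over all arrays were -0.24 and -0.90, so no level of Xaf1 as a gene can be given from them.

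**Figure D5:**
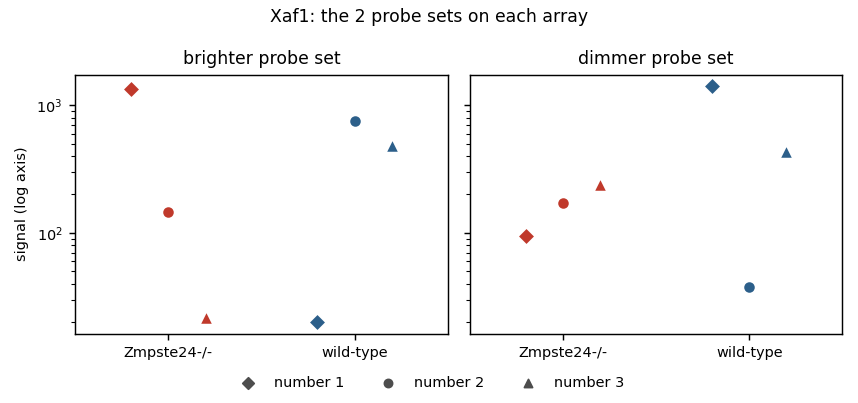
Signal (log axis, array units) of the 2 Xaf1 probe sets on the Zmpste24-/- (left, red) and wild-type (right, blue) arrays, with diamonds, circles and triangles for numbers 1, 2 and 3. The brighter probe set reads 1347 in Zmpste24-/- and 20.1 in wild-type culture 1, and the dimmer one reads 94.7 and 1406 in the same cultures.

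Members that lie next to each other in the genome did not share a single pattern. RefSeq places Ifit2 next to Ifit3 on chromosome 19, Ifitm1 next to Ifitm3 on chromosome 7, Rsad2 next to Cmpk2 on chromosome 12, Ifi27l2a next to Ifi27 on chromosome 12, and Parp14, Dtx3l and Parp9 in a row on chromosome 16. In culture number 1 Ifit3 rose by 2.35 while Ifit2 was at 0.24, whereas Parp9, Dtx3l and Parp14 rose by 1.04, 0.85 and 1.03. Between genotypes the ADP-ribosylation neighbours lay between -0.48 and -0.38, and Ifi27l2a and Ifi27 at -1.77 and -0.62.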

How the data were processed

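The 3 Zmpste24-/- and 3 wild-type arrays were compared from the deposited value table, whose values are probe set intensity on a linear scale; the submitters' processing notes name GCOS, without settings, and each array's 2% trimmed mean in the deposited table is 500. The 64 control probe sets were left out. Values were taken as log2(signal + 16), probe sets with a mean signal under 39.4 (the dimmest 40%) were removed, and limma 3.58.1 (R 4.3.3, lmFit, eBayes with an intensity trend) was fitted on 27022 probe sets with Benjamini-Hochberg adjustment over all of them and a threshold of 0.05. Symbols came from the platform annotation, in which 34945 probe sets had 1 symbol, 932 several and 9160 were not listed; members were used only through probe sets of 1 symbol. With 3 arrays in a group, their number sets the precision.

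The genotype fit without a block was the main one. Equal culture numbers were treated as pairs because the deviations of equal-numbered cultures from their genotype means correlated at 0.83, 0.59 and 0.57 for numbers 1, 2 and 3, all over 0.1, and because the labels' protocols describe pairs. Numbers 2 and 3 also correlated across genotypes at 0.49 and 0.55, so the block was also run with number 1 against the others. Culture number was tested with genotype as a covariate, and the difference of genotype effects with an interaction term. The scripts' fits were tested on simulated data.

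Per-array signals are given for members with groups that did not overlap, members called in any genotype fit and the brightest member of each role group; of each pathway list, up to 3 genes with the smallest blocked p are named; other probe sets of a member are named where they had the other sign or differed by over 0.5 (log2). The members and lists were chosen with earlier results of these data known. Promoter windows were RefSeq's (GRCm38.p6), matched by symbol. Counts without genes that passed the filter through the arrays of 1 genotype or of number 1 alone were added after seeing the data.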

Additional observations from a re-analysis of the deposited data

Results flagged for a closer look

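The genotype difference of Xaf1 in culture number 1 minus that in numbers 2 and 3 was 8.22 on the log2 scale (limma adjusted p 0.0445), a difference of the same contrast between cultures. Number 1 has 1 array of each genotype, so that side of the test is unreplicated and its spread comes from numbers 2 and 3. The Zmpste24-/- culture was higher in pair 1 and lower in pairs 2 and 3. The adjusted p was 0.0742 with a pseudocount of 1, 0.0558 after quantile normalization, 0.815 without the filter and 0.639 without the intensity trend, and the second Xaf1 probe set did not follow the same order of arrays.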

How the results depend on the processing

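Blocks and left-out arrays decided the counts of calls. The genotype difference was called for 0 probe sets in the main fit, 1 with array weights, 5 with the replicate block, 11 with number 1 as one block, 20 in replicates 2 and 3 alone and 0 to 4 with an array left out (4 without wild-type replicate 1). Members called numbered 0 in the unblocked fit, 0 with the replicate block, 5 with number 1 as one block, 2 in replicates 2 and 3 alone and 0 with any array left out. With an array left out the members' median ran from -0.77 to -0.12, members below 0 from 22 to 33, members passing the culture number test from 22 to 26, members higher in number 1 from 24 to 28, and probe sets passing the culture number test from 8345 to 10815. The test of genotype differences between numbers called 7 probe sets, 2 with a pseudocount of 1, 0 without the filter or the intensity trend, 16 with the 60% filter, 19 with median centring and 25 to 51 with an array left out, and Xaf1 there ran from 7.17 to 9.28 with an array left out. Of 367 member values under other alternatives, 2 reversed: Ifitm1 (-0.0116 with array weights) and Eif2ak2 (-0.0123 in replicates 2 and 3 alone), and 7 newly passed the threshold, the calls given above. With an array left out the genotype difference changed sign for Eif2ak2 (-0.33 to 0.35), Gbp2 (-0.15 to 0.0080), Gbp3 (-0.27 to 0.72), Ifit2 (-0.055 to 0.21), Ifit3 (-1.16 to 0.41), Ifitm1 (-0.16 to 0.29), Iigp1 (-0.87 to 0.29), Lgals3bp (-1.63 to 0.0036), Mx2 (-1.06 to 0.24), Rsad2 (-0.36 to 0.084), Samd9l (-0.60 to 0.080), Tor3a (-0.51 to 0.071), Trim21 (-0.76 to 0.017) and Xaf1 (-1.62 to 0.97). Leaving out an array unbalances the culture numbers. The cause of the other shifts was not tested. Dim members such as Dhx58 and Mx2 lie near the filter, where signal limits the precision.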
